A study of Mus musculus with 16 samples.

Results

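Endothelial cells of the mouse heart labelled as knockouts of both Klf2 and Klf4 (DKO) were compared with cells labelled as knockouts of Klf4 alone (K4KO), so that the labels of the groups differ by the Klf2 knockout. The libraries were taken by their genotype labels, 4 for each group and 8 of the 16 in the series. Gene expression was measured by RNA sequencing of total RNA from primary cardiac microvascular endothelial cells, sorted with magnetic beads against CD31, from C57BL/6J mice of 8 to 10 weeks, on day 6 after tamoxifen. Each library came from cells pooled from 2 mice. The knockouts are labelled as endothelial, and the sources used here do not give the driver of the Cre recombinase. The other 8 libraries, 4 with the Klf2 knockout alone (K2KO) and 4 Cre controls, entered the same model for a shared estimate of the spread, and gave the change with the Klf2 knockout label in cells with no Klf4 knockout label. The labels do not say whether the pools within a group came from separate litters or isolations, so p-values measure only the spread between these pools.

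Klf2 and Klf4 encode zinc finger transcription factors of the Krüppel-like family that bind GC-rich and CACCC sequences. Laminar blood flow induces both in endothelium through the MEKK3, MEK5 and ERK5 kinases and MEF2 factors, and the CCM complex restrains this route. They are known for raising anticoagulant and vasodilator genes such as Thbd and Nos3, for lowering adhesion molecules and chemokines, and for overlapping with each other in function.

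Values are scaled counts, read counts that the authors had divided by 1 factor per library. Changes are log2 differences on the log2(scaled count + 1) scale, DKO-labelled minus K4KO, with their standard error from limma. A gene was called, and is said to have risen or fallen in the DKO-labelled libraries, when its Benjamini-Hochberg adjusted p over 23816 tested genes was below 0.05. Where a gene is given for each library, values run from DKO column 2 to column 5 and from K4KO replicate 1 to replicate 4.

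The targeted genes were examined first. Klf2 (ENSMUSG00000055148, chromosome 8, 72319033 to 72321656, GRCm38) had 7318, 9379.9, 10990.0 and 8576 in the DKO-labelled libraries, against 7979.9, 8869, 10990.2 and 9108 in the K4KO libraries. The groups overlapped, and the log2 change was -0.03 ± 0.16 (limma adjusted p = 0.895, two-sided exact permutation p = 0.771). Klf4 (ENSMUSG00000003032, chromosome 4, 55527143 to 55532466) had 7994, 10119.6, 11829 and 7845 in the DKO-labelled libraries, against 5088, 5756, 6779.9 and 5654 in the K4KO libraries. Every DKO-labelled library lay above every K4KO library, and Klf4 was higher by 0.69 ± 0.15 (limma adjusted p = 0.00102, exact permutation p = 0.0286, the smallest that 4 against 4 libraries allow). The DKO label was thus not accompanied by less Klf2 RNA than in the K4KO libraries, and the wording DKO-labelled is used for this group. Counts over a whole gene cannot show whether a part of it was deleted, so deletion of either gene was not tested. In K2KO, Klf2 averaged 3354 ± 203 (SD, n = 4) against 7227 ± 2359 (SD, n = 4) in controls, a log2 change of -1.06 ± 0.16 (limma adjusted p = 0.00682), and the difference between the 2 Klf2 changes was 1.03 ± 0.23 (adjusted p = 0.00237).

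A few neighbours of Klf2 on chromosome 8 were examined too, chosen after their values were seen. Within 15 Mb of Klf2, 6 of 335 tested genes were called in K2KO against control, Klf2 included (1.79%), against 34 of 23481 elsewhere (0.145%). The window was not planned beforehand and takes in the neighbours so chosen, so nothing is read from the difference between these shares. In the DKO-labelled against K4KO comparison, 141 of the 335 were called (42.1%), near the 39.5% of genes elsewhere. Fam32a, which starts 99.3 kb before Klf2, had 1428, 1342, 1395 and 1536 in the DKO-labelled libraries, against 1959.6, 1839, 1931 and 1888 in the K4KO libraries, a fall of -0.42 ± 0.07 that was -0.11 and not called after scaling every library to 1 common median (median scaling), beside a K2KO minus control change of -0.56 ± 0.07. Calr3, a calreticulin family gene whose annotated start is 105 kb beyond that of Klf2, had 77.6, 95.1, 69.5 and 65.9 in the DKO-labelled libraries, against 18.9, 17.5, 25 and 45.6 in the K4KO libraries, a rise of 1.58 ± 0.25 beside one of 3.08 ± 0.25 in K2KO. Mri1, an enzyme of methionine salvage, had 93.1, 92.6, 74.0 and 108 in the DKO-labelled libraries, against 261, 244, 179.8 and 167 in the K4KO libraries, a fall of -1.19 ± 0.16 beside one of -1.28 ± 0.16 in K2KO. At these 3 genes the DKO-labelled libraries all lay beyond the K4KO libraries, in the direction of the K2KO change. Man2b1 (-0.20 ± 0.10, adjusted p = 0.151) and Mast1 (-0.62 ± 0.52, adjusted p = 0.381), the other two neighbours called in K2KO, were not called here. Man2b1 was called without K4KO replicate 4, at -0.32, and with quantile normalisation, at -0.37.

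The DKO-labelled libraries held 25.3 to 29.3 M reads (megareads) in 3 cases and 106 M in column 4, and the K4KO libraries 21.1 to 25.4 M. Protein-coding genes of the mitochondrial genome made up 0.819 to 0.969% of the DKO-labelled reads and 1.16 to 1.53% of the K4KO reads, and the nuclear RNA Malat1 0.453 to 0.617% of the DKO-labelled and 0.651 to 1.38% of the K4KO reads. K4KO replicate 1 stood apart, with 29602 genes detected against 21152 to 21584 in the other K4KO libraries. In it 3772 genes absent from 14 other libraries had reads (0.0349% of its reads), of which 1988 also had reads in K2KO column 2. The endothelial markers Pecam1, Cdh5, Tek, Tie1, Kdr, Emcn, Erg and Cldn5 were high in every library, with Cdh5 at 93471 to 118189 in the DKO-labelled libraries and 53424 to 60969 in the K4KO libraries. The first principal component of the 8 libraries held 76.4% of the variance over 11277 genes and separated the DKO-labelled from the K4KO libraries. The second held 11.2% and set apart K4KO replicate 4 (-33.5) and, on the other side, K4KO replicate 1 (25.3). The other libraries lay between -8.44 and 9.21 on it.

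Of 23816 tested genes, 9420 were called (39.6%), 4557 of them higher (19.1%) and 4863 lower (20.4%) in the DKO-labelled libraries. The change was at least 2-fold for 1115 rises and 2650 falls, and at least 4-fold for 342 and 665. Without overlap between the groups, 4080 genes were higher (17.1%) and 4097 lower (17.2%). The balance of directions depended on the scaling. The median change over all tested genes was -0.11 as deposited, and 48.4% of calls were higher. With median scaling it was 0.15, 7502 genes were called higher and 3075 lower, and 70.9% of calls were higher. Without K4KO replicate 1, 4425 genes were higher and 4441 lower, with a median of -0.03. The deposited and median scaling differed by 0.26 in this median and by 0.31 for the median gene with a mean of at least 100 scaled counts. The counts of rises and falls in each gene list below stand beside these 19.1% and 20.4% of all tested genes. Some lists lay less far from them than others, and nothing is read from their counts. They included axon guidance (28.2% and 30.8%), vasomotor (29.0% and 32.3%), YAP and TAZ (30% and 20%) and MEKK3 and CCM (29.4% and 23.5%). Complement (13.6% and 27.3%), the TNF superfamily (25.7% and 34.3%) and Notch (21.7% and 34.8%) were taken in the same way. List counts whose balance turned, or that moved by at least 2 genes and over 1.5 times, with another scaling or with edgeR or DESeq2, are followed by the counts of rises and falls found there.

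**Figure D1:**
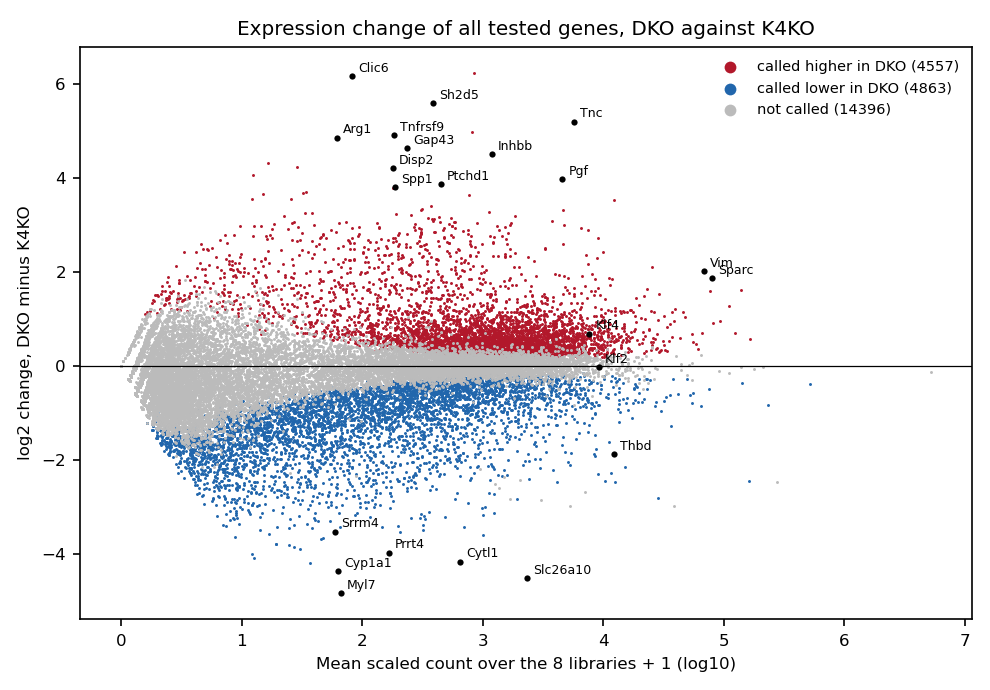
Change of each tested gene (vertical axis, log2, DKO-labelled minus K4KO, 4 libraries each) against its mean scaled count over the 8 libraries (horizontal axis, log10). Each point is 1 gene, red for 4557 called higher and blue for 4863 called lower. Called genes reach up to high expression levels on both sides, and the largest falls lie among genes of lower expression.

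Among the largest rises were genes of matrix, secreted, membrane and intracellular proteins. Tnc, encoding tenascin-C, a matrix glycoprotein of remodelling tissue, had 9339.6, 11159, 12952 and 10861 in the DKO-labelled libraries, against 322, 279, 316 and 281 in the K4KO libraries. No library overlapped, and the change was 5.20 ± 0.12 (adjusted p = 7.8e-16). Pgf, placental growth factor of the VEGF family, had 4507, 9741, 13425 and 6951 in the DKO-labelled libraries, against 501, 559.9, 649 and 371 in the K4KO libraries, a rise of 3.97 ± 0.23. Inhbb, the beta B subunit of activin and inhibin, had 1101, 3145, 2903 and 1963 in the DKO-labelled libraries, against 80.1, 99.4, 81.0 and 113 in the K4KO libraries, a rise of 4.50 ± 0.26. Every DKO-labelled library was above every K4KO library for Inhbb and Pgf too. Tnfrsf9, a costimulatory receptor of the TNF receptor family, had 243, 417, 437 and 319.7 in the DKO-labelled libraries, against 14.6, 6.71, 9.53 and 12.7 in the K4KO libraries (4.92 ± 0.36). Gap43, a growth-cone protein, had 273, 505, 671 and 365 in the DKO-labelled libraries, against 16, 14.8, 15.5 and 19 in the K4KO libraries (4.64 ± 0.37). Spp1, osteopontin, had 194, 303, 292 and 614 in the DKO-labelled libraries, against 24.8, 25.5, 15.5 and 24.1 in the K4KO libraries (3.80 ± 0.32). In these 3 genes the K4KO libraries stayed below 50. Sh2d5, an SH2 domain gene, rose by 5.58 ± 0.52 with 519 to 910.3 in the DKO-labelled libraries and 2.69 to 29.8 in the K4KO libraries. Disp2 rose by 4.21 ± 0.41 and Ptchd1 by 3.88 ± 0.17, both encoding membrane proteins of the Patched and Dispatched type. Clic6, of the chloride intracellular channel family, and Arg1, arginase, rested on very few K4KO reads. Clic6 had 53.2, 207, 288 and 101 in the DKO-labelled libraries, against 4.37, 1.34, 0 and 0 in the K4KO libraries (6.17 ± 0.59), and Arg1 had 38.8, 151, 109 and 176 in the DKO-labelled libraries, against 1.46, 1.34, 2.38 and 7.60 in the K4KO libraries (4.86 ± 0.65).

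Among the largest falls were genes of transporters, enzymes and a muscle protein. Slc26a10, of a family of anion transporters, had 695, 167, 31.1 and 312 in the DKO-labelled libraries, against 5933, 4526, 3989 and 2987 in the K4KO libraries, a fall of -4.51 ± 0.56 (adjusted p = 2.96e-06). Column 2 held the highest of the 4 DKO-labelled values and was still below every K4KO library. Cytl1, a small secreted protein, had 222, 39.5, 26.5 and 78.6 in the DKO-labelled libraries, against 994, 1336, 1101 and 1390.3 in the K4KO libraries (-4.16 ± 0.41), with the same column highest. Cyp1a1, a cytochrome P450 that the aryl hydrocarbon receptor induces, had 12.2, 2.47, 4.57 and 2.12 in the DKO-labelled libraries, against 106, 177, 135 and 55.7 in the K4KO libraries (-4.37 ± 0.40). Myl7, the atrial myosin light chain of cardiomyocytes, had 8.87, 0, 5.79 and 2.12 in the DKO-labelled libraries, against 81.6, 259, 60.7 and 104 in the K4KO libraries (-4.83 ± 0.64). Atrial muscle is not endothelial, and the cardiomyocyte list is given below. Slco1a4, an organic anion transporter of brain endothelium, had 74.3, 27.2, 12.8 and 36.1 in the DKO-labelled libraries, against 337, 384, 312 and 468 in the K4KO libraries (-3.53 ± 0.33). The carboxylesterase genes Ces2e (-3.50 ± 0.35) and Ces1d (-3.40 ± 0.34), the tyrosine phosphatase gene Ptprr (-3.24 ± 0.41), the potassium channel gene Kcnn2 (-3.43 ± 0.36), the kinase gene Mylk4 (-3.26 ± 0.26), Prrt4 (-3.98 ± 0.55) and the splicing factor gene Srrm4 (-3.53 ± 0.35) fell as well, each with no overlap between groups, as the rule for naming them required.

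**Figure D2:**
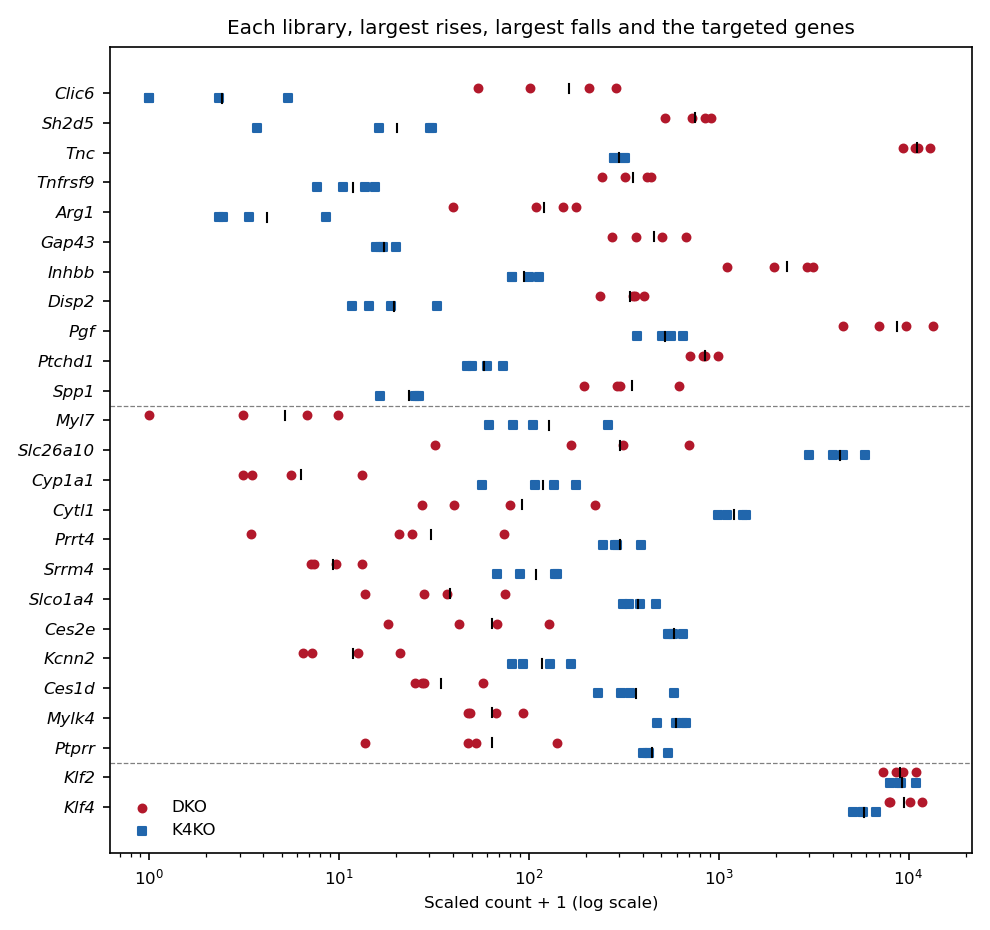
Scaled count plus 1 in each library (horizontal axis, log scale) for the largest rises (top block), the largest falls (middle block) and the targeted genes (bottom block). Red circles are the 4 DKO-labelled libraries, blue squares the 4 K4KO libraries and black ticks the group means. Klf2 is the gene in the plot whose groups overlap.

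The promoters of the largest changes are shown because the factors bind CACCC sequences. They are the 250 bases before the start of the 2 largest rises and the 2 largest falls that had an entry, from RefSeq on GRCm38.p6, 5′ to 3′ on the gene's strand, with CACCC on either strand (GGGTG on the printed one) in capitals. Tnc and Tnfrsf9 rose, and Myl7 and Slc26a10 fell.
Tnc (chr4:64047016-64047265, minus strand): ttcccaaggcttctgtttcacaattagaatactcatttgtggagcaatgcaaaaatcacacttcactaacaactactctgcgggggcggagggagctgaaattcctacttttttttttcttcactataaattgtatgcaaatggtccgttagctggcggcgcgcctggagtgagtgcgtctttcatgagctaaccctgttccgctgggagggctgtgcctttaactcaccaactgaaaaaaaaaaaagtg
Tnfrsf9 (chr4:150919905-150920154, plus strand): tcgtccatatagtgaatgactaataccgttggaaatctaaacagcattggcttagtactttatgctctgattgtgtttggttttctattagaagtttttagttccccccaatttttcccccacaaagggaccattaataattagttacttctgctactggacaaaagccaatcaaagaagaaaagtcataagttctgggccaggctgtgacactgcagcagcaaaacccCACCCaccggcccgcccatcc
Myl7 (chr11:5898783-5899032, minus strand): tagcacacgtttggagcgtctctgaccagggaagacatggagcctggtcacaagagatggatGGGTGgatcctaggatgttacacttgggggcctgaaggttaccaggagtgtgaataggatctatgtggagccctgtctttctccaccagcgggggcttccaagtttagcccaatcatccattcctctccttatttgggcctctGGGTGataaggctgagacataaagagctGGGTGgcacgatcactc
Slc26a10 (chr10:127180583-127180832, minus strand): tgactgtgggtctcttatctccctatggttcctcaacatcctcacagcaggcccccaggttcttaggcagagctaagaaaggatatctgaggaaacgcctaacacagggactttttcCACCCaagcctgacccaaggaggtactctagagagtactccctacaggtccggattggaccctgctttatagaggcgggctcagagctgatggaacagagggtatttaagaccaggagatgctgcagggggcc

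CACCC was found 3 times in the Myl7 window, 1 time in each of those of Tnfrsf9 and Slc26a10, and 0 times in that of Tnc. Of 13649 tested genes with a promoter entry, 57.9% held CACCC on either strand in this window. The share was 56.0% of 3342 genes called higher and 62.0% of 3100 called lower. The longer CCACACCC, which holds a CACCC, was in 3.60% of all, 3.17% of the higher and 3.26% of the lower genes. These are counts of letters in a window and not binding sites.

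Genes of cell division rose together. In the mitosis and spindle list, 33 of 33 tested members rose and 0 fell (median 2.90). Cdk1, the mitotic kinase, had 1953, 2049, 1573 and 2565 in the DKO-labelled libraries, against 160.3, 219, 201 and 258 in the K4KO libraries (3.27 ± 0.31). Mki67, the Ki-67 antigen of cycling cells, had 14635, 12931, 7876 and 16784 in the DKO-labelled libraries, against 1163, 1851, 1628 and 2339 in the K4KO libraries (2.89 ± 0.39), and Top2a, the topoisomerase that untangles sister chromatids, had 9468, 8188, 5103 and 11071 in the DKO-labelled libraries, against 702, 1074, 1007 and 1436 in the K4KO libraries (2.99 ± 0.37). The DKO-labelled libraries lay above all K4KO libraries for each. The cyclin gene Ccnb1 (3.20 ± 0.34), Cdc20 of the anaphase-promoting complex (2.40 ± 0.19) and the ubiquitin-conjugating enzyme Ube2c (3.40 ± 0.27) rose too. In the DNA replication and S phase list, 32 of 34 tested members rose and 0 fell (median 1.54), against 19.1% and 20.4% of all tested genes. The members not called were Pcna (0.20 ± 0.11, and 0.51 and called with median scaling) and Pold1 (0.13 ± 0.23). Tk1, thymidine kinase, had 410.2, 443, 311 and 526 in the DKO-labelled libraries, against 84.5, 75.2, 77.4 and 53.2 in the K4KO libraries (2.52 ± 0.23), the replicative helicase gene Mcm6 rose by 1.06 ± 0.10, and E2f1, a factor that turns on S phase genes, by 2.31 ± 0.27. Among CDK inhibitors and p53 targets, 9 of 24 tested members rose and 4 fell (median 0.33), and the counts were 15 and 2 with median scaling. Cdkn2c (1.53 ± 0.15) and Cdkn1a (0.86 ± 0.23), CDK inhibitors, rose, while Cdkn1c, the inhibitor p57, had 641, 401, 463 and 408 in the DKO-labelled libraries, against 2098, 1595, 1842 and 1678 in the K4KO libraries (-1.93 ± 0.15). Myc, which drives growth, had 808, 1439.8, 1795 and 1006 in the DKO-labelled libraries, against 281, 314, 388 and 195 in the K4KO libraries (2.07 ± 0.24).

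Matrix and the genes of sprouting vessels were also higher. In the matrix, crosslinking and proteolysis list, 35 of 51 tested members rose and 3 fell (median 0.71). The basement membrane collagen gene Col4a1 had 167325, 237617, 236528 and 196408 in the DKO-labelled libraries, against 71003, 69429, 71949.7 and 60117 in the K4KO libraries (1.61 ± 0.13). Sparc, a matrix protein that binds collagen, had 109366, 132173, 137323 and 121825 in the DKO-labelled libraries, against 35515, 31970.1, 34999.7 and 33716 in the K4KO libraries (1.87 ± 0.11). Mmp14, a membrane-bound metalloproteinase, had 4798, 7316, 8646 and 6014 in the DKO-labelled libraries, against 766, 802, 798 and 734 in the K4KO libraries (3.08 ± 0.13). The groups were separate for all 3. The inhibitor of metalloproteinases Timp1 (3.78 ± 0.32), the crosslinking enzyme Loxl2 (2.38 ± 0.14), thrombospondin Thbs1 (2.35 ± 0.19) and the laminin gene Lamb1 (1.84 ± 0.09) rose, while Lamb2 (-0.82 ± 0.19) and Adamts15 (-1.18 ± 0.18) fell. Of genes for sprouting and tip cells, the cells that lead new vessels, 21 of 26 tested members rose and 3 fell (median 1.04), and the counts were 21 and 1 with median scaling, with 1 falling without DKO column 4, DKO column 5, K4KO replicate 2 or K4KO replicate 3. Apln, the ligand apelin, had 15054, 14482, 16007 and 17496 in the DKO-labelled libraries, against 2376, 1959, 2835 and 2411 in the K4KO libraries (2.73 ± 0.17), and the nidogen genes Nid1 (1.48 ± 0.08) and Nid2 (1.70 ± 0.10) and Adm, adrenomedullin (1.39 ± 0.17), rose, while Vegfa (-0.80 ± 0.20) fell. Integrins split: 8 of 19 tested members rose and 9 fell (median -0.29), and the counts were 8 and 8 with median scaling. The beta 3 subunit Itgb3, a partner of the alpha v chain in receptors for fibronectin and osteopontin, had 1847, 3875, 3246 and 2446 in the DKO-labelled libraries, against 359.9, 404, 398 and 396 in the K4KO libraries (2.82 ± 0.18), and the collagen receptor subunit Itga2 (2.62 ± 0.15) and the fibronectin receptor subunit Itga5 (1.96 ± 0.13) rose. The epithelial beta subunits Itgb6 (-2.85 ± 0.40) and Itgb4 (-2.10 ± 0.22) fell.

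**Figure D3:**
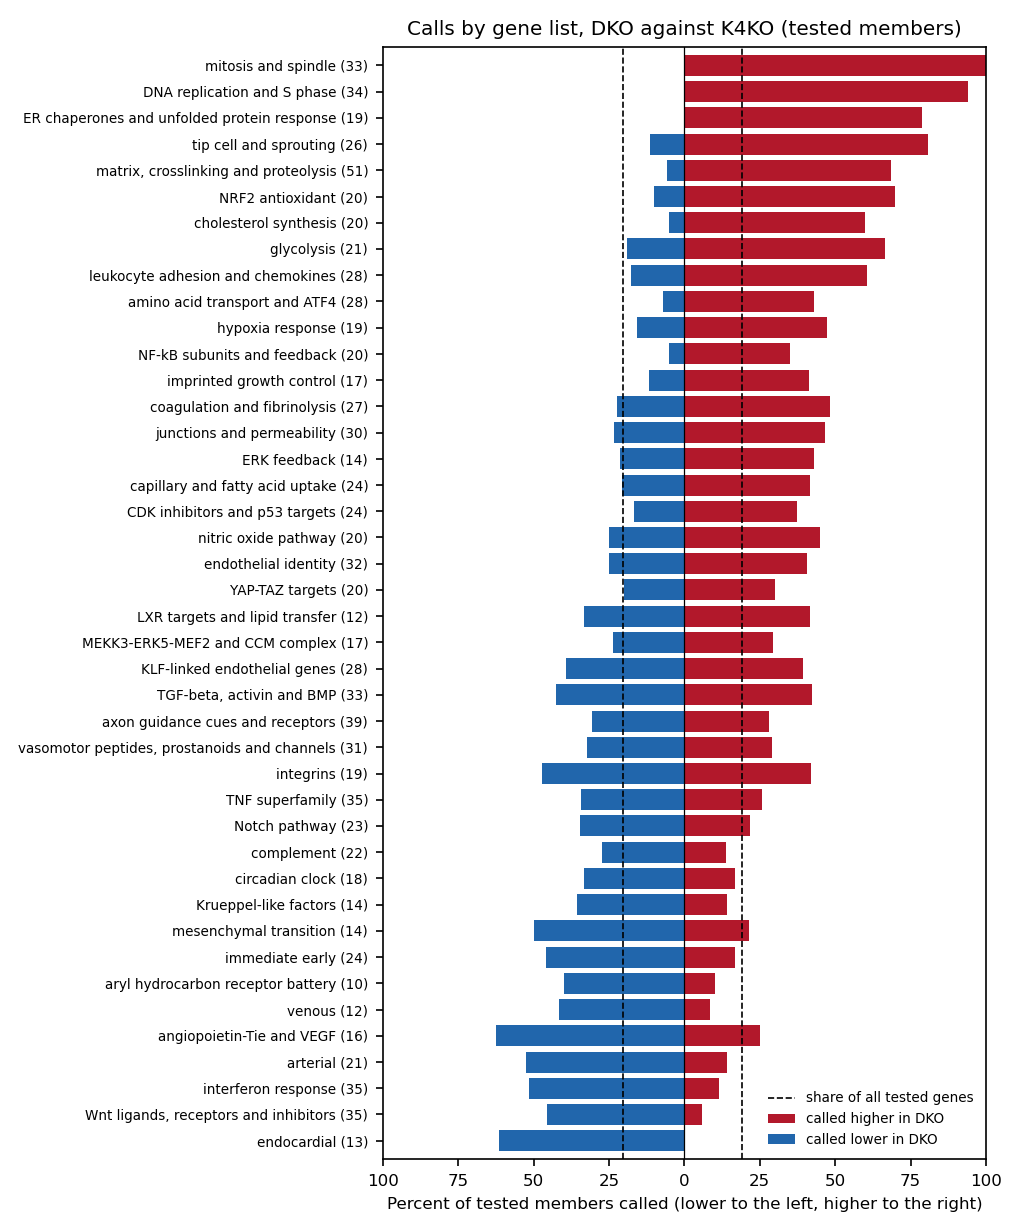
Share of the tested members of each gene list called higher (red, to the right) or lower (blue, to the left) in the DKO-labelled libraries, with tested members in brackets. Dashed lines mark 19.1% and 20.4%, the shares of all tested genes. Cell division, unfolded protein, sprouting and matrix lists lie at the top and the endocardial, Wnt, interferon and arterial lists at the bottom.

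Vascular growth factors and their receptors were unevenly changed. In the angiopoietin-Tie and VEGF list, 4 of 16 tested members rose and 10 fell (median -0.45). Angpt2, the angiopoietin that antagonises Tie2 in many settings, had 2479, 2517, 2829 and 2403 in the DKO-labelled libraries, against 605, 756, 884 and 667 in the K4KO libraries (1.82 ± 0.13), while Tek, the Tie2 receptor itself, had 12738, 10101, 9702 and 11218 in the DKO-labelled libraries, against 19773, 18481, 21354 and 24044 in the K4KO libraries (-0.94 ± 0.10). The ligand genes Angpt1 (-1.55 ± 0.22), Vegfb (-1.10 ± 0.14) and Vegfc (-1.15 ± 0.16) fell, and the VEGF receptor genes Kdr and Flt1 had changes of -0.28 ± 0.11 and -0.28 ± 0.10, which turned to 0.032 and 0.031 with median scaling. In the TGF-beta, activin and BMP list, 14 of 33 tested members rose and 14 fell (median -0.26), and the counts were 16 and 8 with median scaling, 12 and 16 with quantile normalisation, 14 and 15 with edgeR and 15 and 14 with DESeq2. Beside Inhbb, the ligand gene Bmp2 (1.84 ± 0.12) and the mediators Smad1 (0.98 ± 0.09) and Smad2 (0.82 ± 0.07) rose. The BMP9 receptor gene Acvrl1 had 2649, 2231, 2207 and 2153 in the DKO-labelled libraries, against 6217, 5236, 5413 and 3203 in the K4KO libraries (-1.08 ± 0.17), and the BMP target genes Id1 (-1.30 ± 0.18) and Id2 (-0.88 ± 0.09) fell. In the Wnt list, 2 of 35 tested members rose and 16 fell (median -0.65), and the counts were 4 and 14 with median scaling. Axin2, a feedback target of Wnt signalling, had 51.0, 25.9, 38.4 and 46.7 in the DKO-labelled libraries, against 117, 169, 124 and 70.9 in the K4KO libraries (-1.52 ± 0.22), and the inhibitor Nkd1 (-1.56 ± 0.15) and the ligand genes Wnt5b (-1.77 ± 0.23) and Wnt2 (-2.51 ± 0.34) fell, while the inhibitor Dkk2 (1.14 ± 0.20) rose. In the ERK feedback list, 6 of 14 tested members rose and 3 fell (median 0.33), and the counts were 9 and 1 with median scaling and 3 and 4 with quantile normalisation, with 3 rising without DKO column 3, DKO column 4 or K4KO replicate 1, with rises of Spred3 (1.82 ± 0.14) and of the ETS factor Etv4 (2.49 ± 0.26). Among axon guidance genes, 11 of 39 tested members rose and 12 fell (median -0.15), and the counts were 13 and 8 with median scaling. The semaphorin genes Sema3f (1.53 ± 0.18) and Sema6d (0.94 ± 0.10) rose, and Sema3b (-1.65 ± 0.18) and the ephrin receptor gene Epha4 (-1.25 ± 0.11) fell. For YAP and TAZ targets, 6 of 20 tested members rose and 4 fell (median 0.06), and the counts were 11 and 3 with median scaling and 5 and 5 with quantile normalisation. Ctgf, a secreted target, rose by 1.87 ± 0.16 and Wwtr1, which encodes TAZ, by 0.64 ± 0.08.

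With the deposited scaling, 52.4% of tested arterial and 61.5% of tested endocardial genes fell, against 20.4% of all tested genes. In the arterial list, 3 of 21 tested members rose and 11 fell (median -0.42), and the counts were 6 and 8 with median scaling. Alpl, tissue alkaline phosphatase, had 482, 257, 141 and 223 in the DKO-labelled libraries, against 2188, 2344, 2104 and 2169 in the K4KO libraries (-3.13 ± 0.23). The elastic fibre genes Fbln5 (-1.47 ± 0.12) and Eln (-1.72 ± 0.25), the kinase gene Bmx (-1.62 ± 0.13) and Hey2, a Notch target (-1.34 ± 0.12), fell, while the ligand gene Efnb2 (0.44 ± 0.10) rose. In the endocardial list, 0 of 13 tested members rose and 8 fell (median -0.53), and the counts were 0 and 5 with median scaling, with 4 falling without DKO column 5, with falls of Tmem100 (-1.33 ± 0.23) and Wnt9b (-2.09 ± 0.49) beside Cytl1. In the venous list, 1 of 12 tested members rose and 5 fell (median -0.24), and the counts were 1 and 1 with median scaling. Nrp2, a coreceptor of VEGF-C, was the 1 venous member that rose (0.73 ± 0.09), against the 5 that fell. In the Notch list, 5 of 23 tested members rose and 8 fell (median -0.15), and the counts were 8 and 5 with median scaling and 1 and 11 with quantile normalisation, with 2 rising without DKO column 3 or DKO column 4 and 3 rising without K4KO replicate 4. Dll1, a ligand, had 578, 438, 352 and 441 in the DKO-labelled libraries, against 1469, 1462, 1454 and 1267 in the K4KO libraries (-1.66 ± 0.13), the receptor gene Notch2 fell by 0.84 ± 0.10 on the log2 scale, and Adam10, a protease that cleaves Notch, rose by 1.01 ± 0.12. Among general endothelial genes, 13 of 32 tested members rose and 8 fell (median 0.08), and the counts were 18 and 3 with median scaling and 9 and 10 with quantile normalisation. Cldn5, a tight junction protein, had 5362, 9995, 12095 and 6754 in the DKO-labelled libraries, against 2769.7, 2915, 3258 and 2631 in the K4KO libraries (1.5 ± 0.18), and Cd93 (1.28 ± 0.12) and Cd34 (0.82 ± 0.09) rose, while Podxl, podocalyxin (-1.27 ± 0.14), fell. In the junctions list, 14 of 30 tested members rose and 7 fell (median 0.24), and the counts were 20 and 4 with median scaling. Jam2, a junctional adhesion molecule, had 8126, 5252, 3912 and 5532 in the DKO-labelled libraries, against 23655, 21402, 26630.2 and 26243 in the K4KO libraries (-2.15 ± 0.15), in contrast to the nectin gene Pvrl2 (1.70 ± 0.16) and to Cdh5 (0.91 ± 0.10), VE-cadherin. Among capillary and fatty acid uptake genes, 10 of 24 tested members rose and 5 fell (median 0.23). Angptl4, an inhibitor of lipoprotein lipase, had 3609, 10511, 13672 and 6417 in the DKO-labelled libraries, against 622, 694, 976 and 805 in the K4KO libraries (3.31 ± 0.35), and Gpihbp1, the lipase's anchor on capillaries, rose by 1.01 ± 0.18, while the nucleoside transporter gene Slc28a2 (-1.56 ± 0.13) and the aquaglyceroporin gene Aqp7 (-1.20 ± 0.10) fell. In the mesenchymal transition list, 3 of 14 tested members rose and 7 fell (median -0.39), and the counts were 4 and 2 with median scaling. The intermediate filament gene Vim (2.02 ± 0.11) and S100a4 (1.33 ± 0.15) were among the 3 rises. With the deposited scaling most called members of this list went the other way.

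The balance of haemostasis genes is a property for which these factors are known. In the coagulation and fibrinolysis list, 13 of 27 tested members rose and 6 fell (median 0.30). Thbd, thrombomodulin, the endothelial cofactor of protein C activation, had 7197, 4512, 4338 and 5144 in the DKO-labelled libraries, against 22384, 17866, 20739.7 and 15577 in the K4KO libraries, a fall of -1.87 ± 0.14 (adjusted p = 1.36e-08). Each DKO-labelled library was below every K4KO library for Thbd. The urokinase gene Plau (2.33 ± 0.12), its receptor gene Plaur (2.00 ± 0.27), the activator gene Plat (1.5 ± 0.18) and Procr, the protein C receptor (1.53 ± 0.11), rose, while Entpd1, which removes extracellular ATP (-1.68 ± 0.12), fell. The clotting initiator F3 was not called (-0.37 ± 0.22). Of the KLF-linked endothelial genes, 11 of 28 tested members rose and 11 fell (median -0.08), and the counts were 12 and 8 with median scaling, 9 and 12 with quantile normalisation and 10 and 11 with edgeR. Nos3, endothelial nitric oxide synthase, had 6338, 7468, 7733 and 7093 in the DKO-labelled libraries, against 9258, 8610.1, 8174 and 5220.5 in the K4KO libraries and was not called (-0.10 ± 0.16, adjusted p = 0.673). In the nitric oxide pathway list, 9 of 20 tested members rose and 5 fell (median 0.19). The subunits of soluble guanylate cyclase, the receptor of nitric oxide in smooth muscle, fell (-1.52 ± 0.12 for Gucy1a3 and -0.98 ± 0.10 for Gucy1b3), and Ddah1, which breaks down an inhibitor of the synthase, rose by 1.45 ± 0.12. Among vasomotor genes, 9 of 31 tested members rose and 10 fell (median -0.02), and the counts were 12 and 6 with median scaling. The potassium channel gene Kcnj2 (1.95 ± 0.13) and the endothelin receptor gene Ednrb (1.07 ± 0.14) rose, and Kcnn3, a channel of endothelial hyperpolarisation (-1.65 ± 0.20), and cyclooxygenase Ptgs1 (-0.94 ± 0.10) fell.

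Genes of leukocyte recruitment were higher more often than lower. In the leukocyte adhesion and chemokine list, 17 of 28 tested members rose and 5 fell (median 0.86), and the counts were 18 and 3 with median scaling, with 3 falling without DKO column 3. Ccl2, a chemokine for monocytes, had 814, 1037, 1561 and 831 in the DKO-labelled libraries, against 125, 212, 236 and 179 in the K4KO libraries (2.48 ± 0.22). Sele, E-selectin, had 5399, 5589, 5955 and 5391 in the DKO-labelled libraries, against 1893, 1987, 2111 and 2097 in the K4KO libraries (1.47 ± 0.15), and Il6 rose by 1.53 ± 0.24, Il1a by 2.61 ± 0.28 and Cxcl2 by 1.65 ± 0.24. Other adhesion receptors had smaller changes. Icam1, a ligand of leukocyte integrins, had 4046, 4358, 4191 and 3828 in the DKO-labelled libraries, against 4744, 4529, 5549 and 3425 in the K4KO libraries (-0.13 ± 0.17, adjusted p = 0.568), and Selp, P-selectin, stood at 0.01 ± 0.14 (adjusted p = 0.952). Vcam1 had a change of -0.24 ± 0.09, which turned to 0.069 with median scaling. Of NF-kB subunits and feedback genes, 7 of 20 tested members rose and 1 fell (median 0.26), and the counts were 16 and 0 with median scaling, with the feedback inhibitor Tnfaip3 higher by 0.84 ± 0.15. In the TNF superfamily, 9 of 35 tested members rose and 12 fell (median 0.08), and the counts were 12 and 8 with median scaling and 9 and 8 with quantile normalisation. Beside Tnfrsf9, Tnf rose by 1.24 ± 0.21, and the receptor genes Cd40 (-1.08 ± 0.11) and Tnfrsf1b (-1.0 ± 0.12) fell. In the interferon response list, 4 of 35 tested members rose and 18 fell (median -0.27), and the counts were 9 and 6 with median scaling, with 2 rising without DKO column 2, K4KO replicate 1 or K4KO replicate 2. The guanylate-binding protein gene Gbp4 had 3816, 1495, 1289 and 1937 in the DKO-labelled libraries, against 7120.2, 7582, 8204 and 9303 in the K4KO libraries (-2.04 ± 0.21), and Gbp5 (-1.40 ± 0.19) and the sensor gene Oas2 (-1.17 ± 0.17) fell, while Mx1 rose by 1.30 ± 0.25. Of complement genes, 3 of 22 tested members rose and 6 fell (median 0.003), and the counts were 8 and 6 with median scaling and 6 and 7 with quantile normalisation, with a fall of C1ra (-1.21 ± 0.13), a protease of the first component. Among immediate early genes, 4 of 24 tested members rose and 11 fell (median -0.52), and the counts were 4 and 1 with median scaling. Fosb fell by 1.11 ± 0.23 on the log2 scale, and the AP-1 subunit Fosl1 (1.53 ± 0.38) rose beside Myc.

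Metabolic and stress genes formed several lists with more rises than falls. For glycolysis, 14 of 21 tested members rose and 4 fell (median 0.83), and the counts were 15 and 2 with median scaling. The glucose transporter gene Slc2a1 had 1161, 1792, 2008 and 1297 in the DKO-labelled libraries, against 425, 538, 432 and 320.3 in the K4KO libraries (1.85 ± 0.18), and pyruvate kinase Pkm (1.5 ± 0.15) and the platelet-type phosphofructokinase gene Pfkp (1.34 ± 0.12) rose, while hexokinase Hk2 (-1.28 ± 0.16) and the muscle-type gene Pfkm (-1.08 ± 0.12) fell. For the hypoxia response, 9 of 19 tested members rose and 3 fell (median 0.60), and the counts were 12 and 1 with median scaling and 7 and 6 with quantile normalisation. The hydroxylase gene Egln3 rose by 2.23 ± 0.17 and Hif1a by 1.08 ± 0.08, and Epas1, which encodes HIF-2 alpha, fell by 0.67 ± 0.13 on the log2 scale, a change of -0.36 and not called with median scaling. For amino acid transport and ATF4 targets, 12 of 28 tested members rose and 2 fell (median 0.46). Slc7a5, a transporter of large neutral amino acids, had 1750.4, 2756, 3295 and 2211 in the DKO-labelled libraries, against 328, 431, 427 and 271 in the K4KO libraries (2.76 ± 0.18), and the folate enzyme gene Mthfd2 (2.63 ± 0.24) and asparagine synthetase Asns (1.32 ± 0.09) rose. For ER chaperones and the unfolded protein response, 15 of 19 tested members rose and 0 fell (median 0.75), with Manf (1.15 ± 0.08), Pdia6 (1.09 ± 0.08) and the chaperone gene Hspa5 (0.93 ± 0.10) among them. For NRF2 antioxidant genes, 14 of 20 tested members rose and 2 fell (median 0.61), including thioredoxin Txn1 (1.10 ± 0.08) and its reductase Txnrd1 (0.94 ± 0.08), while the glutathione transferase gene Gstm1 (-0.93 ± 0.12) fell. For cholesterol synthesis, 12 of 20 tested members rose and 1 fell (median 0.59), with a rise of the squalene epoxidase gene Sqle (1.92 ± 0.16). For LXR targets, 5 of 12 tested members rose and 4 fell (median 0.11), and the counts were 2 and 5 with quantile normalisation and 4 and 4 with edgeR, with 3 rising without K4KO replicate 4. Pltp, phospholipid transfer protein, had 418, 169, 162 and 164 in the DKO-labelled libraries, against 2188, 1811, 1769 and 1186 in the K4KO libraries (-3.02 ± 0.25), and Apoe fell by 1.42 ± 0.17 on the log2 scale. In the aryl hydrocarbon receptor battery, 1 of 10 tested members rose and 4 fell (median -0.71). The receptor gene Ahr had 1202, 725, 592 and 818 in the DKO-labelled libraries, against 3742, 3019.5, 3997 and 3272 in the K4KO libraries (-2.11 ± 0.16), and its repressor gene Ahrr fell beside Cyp1a1 (-1.78 ± 0.28).

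Relatives and upstream genes of the factors were examined as well. Of the other Krüppel-like factors, 2 of 14 tested members rose and 5 fell (median -0.18), and the counts were 5 and 2 with median scaling. Klf6 had 44479.6, 66588, 87896 and 54012 in the DKO-labelled libraries, against 23692, 23838, 36762 and 27745 in the K4KO libraries (1.15 ± 0.19), Klf9 changed by -0.82 ± 0.16, and Klf15, of low level here, by -1.60 ± 0.37. In the MEKK3, ERK5, MEF2 and CCM list, 5 of 17 tested members rose and 4 fell (median 0.01), and the counts were 9 and 2 with median scaling and 4 and 5 with quantile normalisation. Map3k3, which encodes MEKK3, had 6893, 8319, 8626 and 7514 in the DKO-labelled libraries, against 5264, 5012, 5579.7 and 4335 in the K4KO libraries (0.64 ± 0.09), and Heg1 (-0.85 ± 0.10) and Ccm2l (-1.14 ± 0.13), of the CCM complex, fell. In the imprinted growth control list, 7 of 17 tested members rose and 2 fell (median 0.25). Mest had 21293, 22384, 22196 and 24921 in the DKO-labelled libraries, against 1898, 1769.6, 1937 and 2249 in the K4KO libraries (3.53 ± 0.17), and the noncoding RNA H19 (2.29 ± 0.23) and Igf2 (0.84 ± 0.18) rose. In the circadian clock list, 3 of 18 tested members rose and 6 fell (median -0.58), and the counts were 3 and 3 with median scaling and 3 and 10 with edgeR, with 3 falling without DKO column 3, K4KO replicate 1, K4KO replicate 2 or K4KO replicate 3 and 11 falling without K4KO replicate 4. The median change of the clock list in K2KO minus control was -0.64. Its summed scaled counts were 33081 to 38606 in the DKO-labelled libraries and 56039 to 57591 in K4KO replicates 1 to 3. In K4KO replicate 4 the sum was 24624, below every DKO-labelled library. The output gene Hlf (-1.75 ± 0.44) fell and the repressor Nfil3 rose by 1.66 ± 0.30. Of mitochondrially encoded protein genes, 0 of 7 tested members rose and 7 fell (median -0.68), and the counts were 0 and 3 with median scaling, with mt-Nd2 at -0.97 ± 0.12 and mt-Nd5 at -0.76 ± 0.11. The 6 others (mt-Nd3, mt-Nd4l, mt-Co2, mt-Co3, mt-Atp6 and mt-Atp8) are listed at 0 in every DKO-labelled and K4KO library.

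The same Klf2 label difference in cells without a Klf4 knockout label gave few calls. The K2KO libraries held 32.4 to 51.0 M reads and the controls 23.5 to 24.3 M, and the part of depth in the calls was not tested. In K2KO against control, libraries that share no sample with the comparison above, 40 genes were called (0.168%), 33 higher (0.139%) and 7 lower (0.0294%), and 1543 had an unadjusted p under 0.05. Leaving out any 1 of its 8 libraries moved the higher count, to between 9 and 20 for 7 of them and to 127 without control replicate 3. Of the 40, 28 (70%) were also called in the DKO-labelled against K4KO comparison, where 39.6% of all tested genes were called. These 28 are 0.297% of the 9420 called there, and 24 of the 28 moved in the same direction. The difference between the 2 changes, tested for each gene as an interaction, was called for 6352 genes (26.7%), 3060 positive (12.8%) and 3292 negative (13.8%), and for 6037 of the 9420 genes (64.1%). With median scaling, 5825 were positive and 2113 negative. Tnc changed by 0.17 ± 0.12 in K2KO (adjusted p = 0.943), and its difference was 5.02 ± 0.17 (adjusted p = 8.2e-13). The difference was 6.79 ± 0.83 for Clic6, 4.71 ± 0.92 for Arg1, -4.11 ± 0.80 for Slc26a10, -3.83 ± 0.58 for Cytl1, -4.91 ± 0.90 for Myl7, -3.80 ± 0.49 for Srrm4 and -1.51 ± 0.20 for Thbd. For Thbd the K2KO minus control change was -0.36 ± 0.14 (adjusted p = 0.656).

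Among the genes called in both comparisons in the same direction were Adamts4, a protease of aggrecan and versican (2.10 ± 0.30 here and 1.83 ± 0.30 in K2KO), Sele (1.47 ± 0.15 and 0.86 ± 0.15), the integrin ligand gene Npnt (1.67 ± 0.19 and 1.17 ± 0.19) and Il33 (-1.32 ± 0.16 and -0.85 ± 0.16), named after their values were seen. Another 4 were called in opposite directions. Gadd45b, a stress-inducible gene, changed by -0.63 ± 0.17 here and by 0.86 ± 0.17 in K2KO, Caprin2 by -0.74 ± 0.15 and 0.85 ± 0.15, Ppp1r10 by -0.70 ± 0.11 and 0.59 ± 0.11, and Adamts19, at few reads, by -1.21 ± 0.34 and 1.72 ± 0.34. The change of Gadd45b here was -0.32 and not called with median scaling, and that of Adamts19 was -0.67 and not called with quantile normalisation. Icam1 rose in K2KO alone (0.94 ± 0.17), to 11470.0 ± 1054 (SD, n = 4) against 6206 ± 2157 (SD, n = 4) in controls, and its difference between the comparisons was -1.07 ± 0.23 (adjusted p = 0.00208). Selp rose in K2KO by 0.97 ± 0.14 and Klf10 by 0.53 ± 0.09, and both had a difference that was called (-0.96 ± 0.20 and -0.50 ± 0.13).

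**Figure D4:**
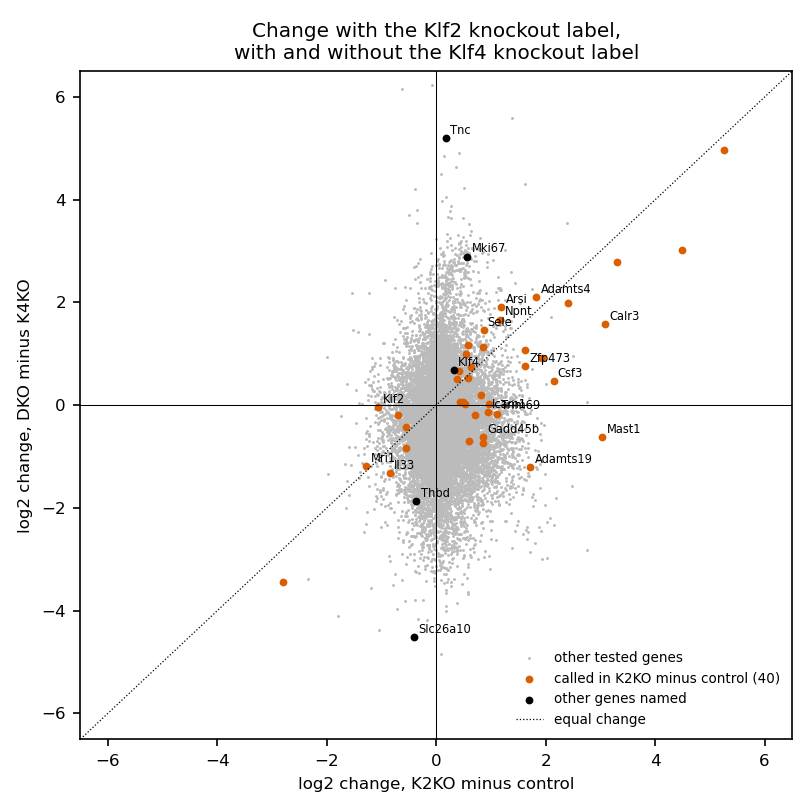
log2 change of each tested gene in K2KO minus control (horizontal axis) and in DKO-labelled minus K4KO (vertical axis), 4 libraries in each group. Orange points are the 40 genes called in K2KO minus control, black points other genes named, and the dotted line marks equal change. The cloud is tall and narrow, and 24 of the orange points lie in the same direction with a call on both axes.

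Markers of other cell types that bead isolation could carry over were lower in several lists, and in bulk libraries fewer cells of a type and less RNA per cell cannot be told apart. In the cardiomyocyte list, 0 of 22 tested members rose and 19 fell (median -1.81), and its summed scaled counts were 56705 to 93694 in the DKO-labelled libraries and 286985 to 523704 in the K4KO libraries, with no overlap. Myh6, the main heavy chain of adult mouse heart muscle, had 9873, 6926, 5035 and 6556 in the DKO-labelled libraries, against 37261, 73591, 40114 and 49629.5 in the K4KO libraries (-2.81 ± 0.23). Red cell genes were lower as well: in the erythroid list, 0 of 9 tested members rose and 7 fell (median -1.57), with sums of 4077 to 6954 in the DKO-labelled libraries and 14890.4 to 24001 in the K4KO libraries. Of mural cell markers, of pericytes and smooth muscle, 1 of 15 tested members rose and 10 fell (median -0.68), with sums of 113166 to 134763 in the DKO-labelled libraries and 141767 to 178112 in the K4KO libraries, and the smooth muscle myosin gene Myh11 fell by 1.47 ± 0.16 on the log2 scale. For lymphocytes, 2 of 17 tested members rose and 10 fell (median -1.12), with sums of 657 to 770.4 in the DKO-labelled libraries and 1169 to 1762 in the K4KO libraries. For Schwann and neuronal cells, 1 of 8 tested members rose and 5 fell (median -1.63), with sums of 160.4 to 229 in the DKO-labelled libraries and 353 to 599 in the K4KO libraries. Lists that overlapped between the groups were fibroblast (3 higher and 6 lower of 15, 5 and 5 with median scaling and 1 and 5 with quantile normalisation, with sums of 20148 to 31039 in DKO-labelled and 18814 to 31938 in K4KO libraries), macrophage (3 higher and 1 lower of 16, 6 and 0 with median scaling and 5 and 1 with quantile normalisation, with sums of 4047 to 7417 in DKO-labelled and 4232 to 5548 in K4KO libraries), neutrophil (1 higher and 2 lower of 10, 1 and 1 with median scaling and 1 and 0 with quantile normalisation, with sums of 134 to 209 in DKO-labelled and 138 to 312 in K4KO libraries), platelet (1 higher and 1 lower of 8, 2 and 0 with median scaling, 1 and 0 with quantile normalisation, 0 and 1 with edgeR and 0 and 1 with DESeq2, with sums of 399 to 734 in DKO-labelled and 519 to 626 in K4KO libraries) and lymphatic endothelium (1 higher and 3 lower of 6, 2 and 2 with median scaling, with sums of 11264 to 14429 in DKO-labelled and 10689 to 12826 in K4KO libraries). In the mesothelial and epicardial list, 1 of 8 tested members rose and 3 fell (median -0.71), while its sum, which Wt1 dominates, was 2489 to 4086 in the DKO-labelled libraries and 1507 to 1823 in the K4KO libraries. The falls of Myl7, of the guanylate cyclase subunits and of mitochondrial genes stand beside these lower sums, and the part that other cells had in them was not tested. Nor was it tested for any other fall or for any rise given above, so neither the falls nor the rises can be assigned to endothelial cells alone. Cdh5 and Pecam1 were higher (0.91 ± 0.10 and 0.51 ± 0.09) and Tek lower (-0.94 ± 0.10) in the same libraries.

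**Figure D5:**
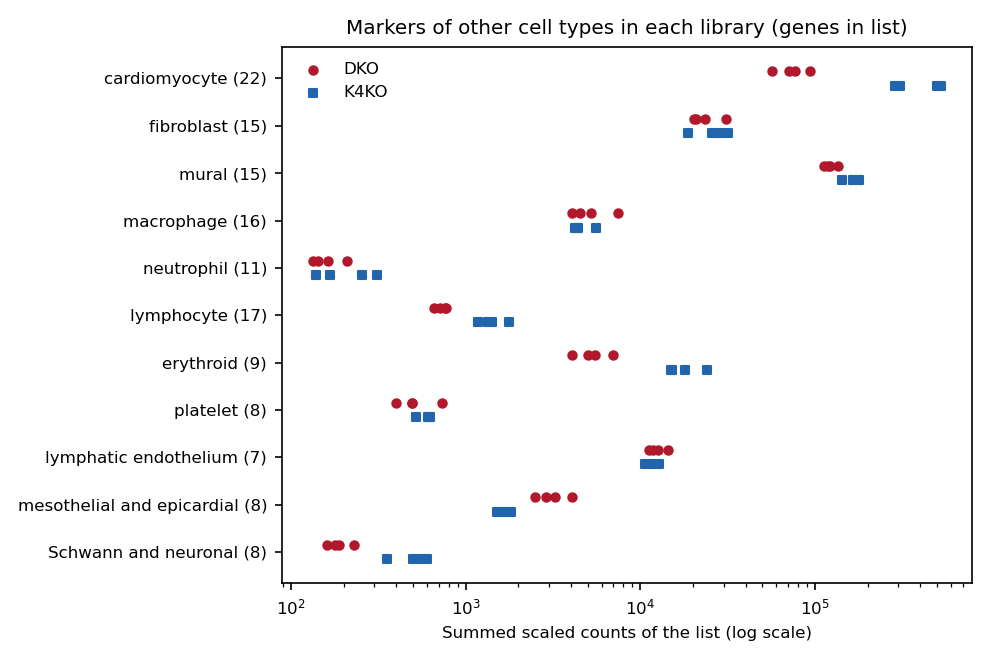
Summed scaled counts of marker genes of other cell types in each library (horizontal axis, log scale), with the genes in each list in brackets. Red circles are DKO-labelled and blue squares K4KO libraries. Cardiomyocyte, erythroid, lymphocyte, mural and Schwann sums lie lower in all 4 DKO-labelled libraries, and the mesothelial sum higher.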

How the data were processed

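RNA was sequenced from 16 pools of CD31-sorted cardiac endothelial cells. The authors deposited 1 table of 43629 genes, whose library columns hold a signal, scaled counts. In the deposited signal 100% of values were whole multiples of 1 step per library within a tolerance of 0.001 reads, so read counts had been divided by 1 factor per library. The submitters' processing notes name TopHat, Cuffdiff and GRCm38, and a stranded Illumina kit in the labels. The sources used here do not give the counting tool, annotation release, strand setting or origin of the factors, and overlapping, antisense or near-identical genes cannot be told apart. No columns of values were left unused, and the authors' own fold changes and p-values were not used. The DKO and K2KO columns are numbered 2 to 5 and could be tied to their group but not to single samples.

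The test was that of limma 3.58.1 (R 4.3.3, moderated with an intensity trend) on log2(value + 1), which understates changes of low genes, for genes that reached 1 in 4 or more libraries. All 16 libraries entered 1 model of 4 group means, with Benjamini-Hochberg adjustment over all tested genes of a contrast. The script was tested on simulated data. Alternatives were another pseudocount, filter, scaling and fit, edgeR 4.0.16 and DESeq2 1.42.0 on recovered reads, and leaving out each library. Klf2 and Klf4 also had an exact permutation test. The 54 lists (1154 entries, 1153 matched, 9 of them through an older symbol or identifier) were chosen with earlier results of these data known, as were the comparison and the rule for naming genes. The rule took Klf2 and Klf4, the 12 largest rises and falls among called protein-coding genes without overlap between groups, with a higher group mean of at least 100 and no provisional Gm or Rik names, 4 positive and 4 negative interactions, and up to 3 members of each list with the smallest p. Not all of these are named, and list members beyond the rule were named after their values were seen. Some of the genes so picked are not reported here.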

Additional observations from a re-analysis of the deposited data

Results flagged for a closer look

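In 422 groups of 4 values examined, 27 held a value that stood apart from the other 3 of its group by Dixon's criterion, which chance meets for about 1 in 20 groups. They included the 106 M reads of DKO-labelled column 4, the 29602 genes detected in K4KO replicate 1 and the summed macrophage markers of that library, 5548 scaled counts. In DKO-labelled column 2 the value apart was 56.5 for Ces1d, 2649 for Acvrl1, 109 for Nkd1, 2401 for Epha4, 2869 for Gucy1a3, 70.9 for Kcnn3, 803 for Pfkm and 418 for Pltp (scaled counts). In DKO-labelled column 4 the value apart was 15836 for Igf2 (scaled counts). In DKO-labelled column 5 the value apart was 266 for Hk2 (scaled counts). In K4KO replicate 2 the value apart was 2147 for Notch2, 2724 for Oas2 and 1027 for Hk2 (scaled counts). In K4KO replicate 3 the value apart was 15.5 for Spp1 (scaled counts). In K4KO replicate 4 the value apart was 7.60 for Arg1, 2809.7 for Nid2, 67.1 for Wnt2, 1507 for Sema3f, 2775 for Efnb2, 1267 for Dll1, 3163 for Pkm, 32698 for Epas1, 2022 for Ccm2l and 303 for Nfil3 (scaled counts).

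The change with the Klf2 label differed between DKO-labelled minus K4KO and K2KO minus control, by the interaction test (limma adjusted p below 0.05), for 169 of 195 genes named, where the same test called 26.7% of all tested genes. The named genes were chosen for their change in the first of these comparisons, so nothing is read from that share. Differences are log2 values, the first change minus the second. The targeted genes had a positive difference of 1.03 for Klf2. The neighbours of Klf2 had a positive difference of 0.50 for Man2b1. Negative values there were -1.5 for Calr3 and -3.65 for Mast1. Endothelial markers had a positive difference of 0.75 for Cdh5 and 0.44 for Pecam1. The largest rises had a positive difference of 5.02 for Tnc, 3.86 for Pgf, 4.41 for Inhbb, 4.50 for Tnfrsf9, 4.29 for Gap43, 4.14 for Spp1, 4.21 for Sh2d5, 4.6 for Disp2, 3.60 for Ptchd1, 6.79 for Clic6 and 4.71 for Arg1. The largest falls had a negative difference of -4.11 for Slc26a10, -3.83 for Cytl1, -3.32 for Cyp1a1, -4.91 for Myl7, -3.51 for Slco1a4, -2.71 for Ces2e, -2.77 for Ces1d, -3.15 for Ptprr, -3.39 for Kcnn2, -2.96 for Mylk4, -3.26 for Prrt4 and -3.80 for Srrm4. Cell division and growth control genes had a positive difference of 2.77 for Cdk1, 2.33 for Mki67, 2.43 for Top2a, 2.66 for Ccnb1, 2.15 for Cdc20, 2.76 for Ube2c, 2.36 for Tk1, 1.10 for Mcm6, 1.82 for E2f1, 1.51 for Cdkn2c and 1.91 for Myc. On the negative side stood -2.08 for Cdkn1c. Matrix, sprouting and integrin genes had a positive difference of 1.32 for Col4a1, 1.60 for Sparc, 2.88 for Mmp14, 3.52 for Timp1, 2.17 for Loxl2, 2.13 for Thbs1, 1.63 for Lamb1, 2.36 for Apln, 1.30 for Nid1, 1.72 for Nid2, 0.90 for Adm, 2.68 for Itgb3, 2.18 for Itga2 and 1.78 for Itga5. The others were negative, -1.33 for Adamts15, -1.04 for Vegfa, -3.53 for Itgb6 and -1.95 for Itgb4. Growth factor, signalling and guidance genes had a positive difference of 1.58 for Angpt2, 1.71 for Bmp2, 0.81 for Smad1, 0.79 for Smad2, 1.70 for Spred3, 2.31 for Etv4, 1.62 for Sema3f, 0.84 for Sema6d, 2.23 for Ctgf and 0.44 for Wwtr1. Below 0 were -0.92 for Tek, -1.73 for Angpt1, -1.12 for Vegfb, -1.30 for Vegfc, -1.0 for Acvrl1, -1.5 for Id1, -0.98 for Id2, -1.68 for Axin2, -1.84 for Nkd1, -1.94 for Wnt5b, -1.96 for Wnt2, -1.91 for Sema3b and -1.28 for Epha4. Vessel type, junction, capillary and mesenchymal transition genes had a positive difference of 0.57 for Nrp2, 0.86 for Adam10, 0.76 for Cldn5, 0.96 for Cd93, 0.81 for Cd34, 1.48 for Pvrl2, 2.69 for Angptl4, 0.99 for Gpihbp1, 1.97 for Vim and 1.40 for S100a4. Negative differences were -2.93 for Alpl, -1.43 for Fbln5, -1.57 for Eln, -1.57 for Bmx, -1.47 for Hey2, -1.04 for Tmem100, -1.59 for Dll1, -0.79 for Notch2, -1.07 for Podxl, -2.03 for Jam2, -1.37 for Slc28a2 and -1.36 for Aqp7. Haemostasis, nitric oxide and vasomotor genes had a positive difference of 2.10 for Plau, 1.51 for Plaur, 1.58 for Plat, 1.22 for Procr, 0.89 for Ddah1, 1.85 for Kcnj2 and 1.08 for Ednrb. In the same set it was negative, -1.51 for Thbd, -1.40 for Entpd1, -1.60 for Gucy1a3, -1.05 for Gucy1b3, -1.28 for Kcnn3 and -0.58 for Ptgs1. Inflammatory and immediate early genes had a positive difference of 1.89 for Ccl2, 0.60 for Sele, 1.93 for Il1a and 1.24 for Mx1. Negative values there were -1.07 for Icam1, -0.96 for Selp, -1.0 for Cd40, -0.86 for Tnfrsf1b, -1.66 for Gbp4, -1.16 for Gbp5, -1.20 for Oas2, -1.20 for C1ra and -1.43 for Fosb. Metabolic and stress genes had a positive difference of 1.67 for Slc2a1, 1.53 for Pkm, 0.80 for Pfkp, 2.25 for Egln3, 1.13 for Hif1a, 2.35 for Slc7a5, 2.23 for Mthfd2, 1.11 for Asns, 0.95 for Manf, 0.77 for Pdia6, 0.44 for Hspa5, 0.97 for Txn1, 0.70 for Txnrd1 and 1.49 for Sqle. On the negative side stood -1.16 for Hk2, -1.08 for Pfkm, -0.54 for Epas1, -0.97 for Gstm1, -2.62 for Pltp, -1.32 for Apoe, -1.90 for Ahr and -1.5 for Ahrr. Krüppel-like, upstream, imprinted and clock genes had a positive difference of 1.26 for Klf6, 0.60 for Map3k3, 2.93 for Mest, 1.91 for H19 and 0.71 for Igf2. The others were negative, -0.62 for Klf9, -0.61 for Heg1, -0.93 for Ccm2l and -0.50 for Klf10. Genes called in both comparisons but in opposite directions had a negative difference of -1.49 for Gadd45b, -1.59 for Caprin2, -1.29 for Ppp1r10 and -2.92 for Adamts19. Markers of other cells had a negative difference of -2.98 for Myh6 and -1.54 for Myh11. For the mitochondrially encoded genes it was -1.01 for mt-Nd2 and -0.68 for mt-Nd5.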

How the results depend on the processing

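The calls of the DKO-labelled against K4KO comparison stayed within 1.5 times of 4557 higher and 4863 lower under quantile normalisation, edgeR and DESeq2 on recovered reads, robust limma with no trend, a model of the compared groups alone, another pseudocount (0.1), no filter or one on the mean (5), and without each library in turn (4120 to 4602 higher and 4251 to 5103 lower). With every library scaled to 1 common median they were 7502 and 3075, and the interaction calls 5825 and 2113, since that scaling moves the median change of all genes. Klf2 stayed uncalled (adjusted p 0.158 to 0.970) and Klf4 called (4.18e-05 to 0.00894) under every alternative run. K2KO against control was less stable, with 19 higher with no filter, 21 with median scaling, 8 higher and 2 lower with robust limma, 88 and 35 with DESeq2, 22 lower in a model of these groups alone, and 9 to 127 higher and 4 to 10 lower without 1 library; the cause was not tested. Median scaling reversed Kdr (0.032), Flt1 (0.031) and Vcam1 (0.069). Under the settings other than leaving out a library, 1735 values of named genes kept their direction and side of the threshold, 14 were no longer called and 3 became called. Without 1 library these numbers were 1542, 17 and 1. Genes of few reads are limited by depth, since 1 read was worth 0.305 to 1.46 scaled counts in these 8 libraries. No paired analysis was possible because the DKO columns are numbered 2 to 5 and the labels 1 to 4, so same-numbered libraries cannot be matched.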
